A study of Caenorhabditis elegans with 12 samples.

Results

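The flp genes of Caenorhabditis elegans encode precursors of FMRFamide-like peptides, short neuropeptides that end in arginine and an amidated phenylalanine. Genes were taken by symbol, flp- followed by a number, which gave 31 genes among the 46726 gene IDs counted. Of these, 30 were among the 16764 genes with enough counts to be tested. The member left untested, flp-23, had 7 counts over all 12 libraries and at most 2 in any of them.

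Each flp precursor is cut by proprotein convertases, trimmed by a carboxypeptidase and amidated inside dense core vesicles. The released peptides act mostly through G protein-coupled receptors, on neurons and on muscle, gut and the egg-laying apparatus. In C. elegans this family is known for setting locomotion, sleep and arousal, egg laying, feeding and fat use.

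RNA with poly(A) tails was sequenced from whole adults of strain MT12993, which carries the n4115 allele of the microRNA gene mir-71, and of N2, the laboratory wild type. Both genotypes were sampled at day 5 and at day 0 of adulthood, with 3 libraries in each of the 4 groups, called biological triplicates in the design text. All groups were cultured at 20 °C and exposed from about the final molt to 5-fluorodeoxyuridine (0.1 mg/mL), which blocks DNA synthesis, so age and time on the drug cannot be told apart. A single mutant strain was used, so the allele and any other difference between the strains cannot be told apart either.

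Totals lay between 20.5 and 65.2 M (mega) counts per library. CPM below are counts per M counts of the library after TMM scaling. Levels carry a ± SD over 3 libraries per group, and log2 fold changes carry a ± SE. Calls are edgeR quasi-likelihood tests with Benjamini-Hochberg adjusted p below 0.05 over all tested genes. The row of mir-71 itself had 0 counts in all 12 libraries, N2 included, and so did not check the genotype. All 15 pan-neuronal markers were detected in every library. Their summed level was 732 to 777 CPM in mutants at day 5, 704 to 712 CPM in N2 at day 5, 506 to 589 CPM in mutants at day 0 and 560 to 585 CPM in N2 at day 0. These sums rest mostly on snb-1, unc-11, nsf-1 and ric-7, the most abundant markers in each group, and none of these fell with age. Gene by gene, the median log2 change of the 15 markers with age was -0.3 in N2, with 10 negative, and 0.15 in mutants, with 4 negative. Between mutants and N2 at day 5 the median log2 difference was 0.44, with 3 negative. The sums therefore do not stand for the markers as a set. In whole animals, fewer cells of a type and less RNA per cell cannot be told apart, and a CPM is a share of all the animal's RNA. That background moved with age in both genotypes. Summed oocyte markers were at 4851 to 7704 CPM in the 6 libraries of day 5, against 2136 to 3161 CPM in the 6 of day 0, all 8 body wall muscle markers fell with age in both genotypes, and so did all 7 tested sperm markers, with sums of 2.98 to 12.9 CPM at day 5, against 390 to 1133 CPM at day 0. The part of these shifts in the flp values was not tested.

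Several libraries stood apart in the flp genes. Replicate 2 of N2 at day 5 was the highest of its group for 28 of 30 tested members, with a median ratio of 1.48 to the mean of the other 2 libraries. Over all tested genes it was the highest for 41% with a median ratio of 1.02, and over the pan-neuronal markers for 12 of 15 with a median ratio of 1.24. This library had 52 M counts, against 27.1 M in replicate 1 and 21.4 M in replicate 3 of the same group. Replicate 3 of N2 at day 5 held the lowest of all 12 values for 20 members, and replicate 1 of the mutants at day 5 held the highest for 14. Within their groups, the former was the lowest for 25 of 30 members (median ratio 0.72) and the latter the highest for 25 (1.2). Replicate 3 of the mutants at day 0 was the lowest of its group for 21 of 30 (0.796). The part of depth in these patterns was not tested. Many, but not all, of the counts and values that use N2 at day 5 are therefore also given from fits of 11 libraries, without its replicate 2. A value given without such a fit is not thereby shown to be stable. The fits of 11 libraries do not replace those of all 12 libraries, and leaving out some other libraries moved counts of calls the other way.

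The flp genes differed far more from each other than between groups. Per kilobase of exon, flp-14 had the highest level of the family in all 4 groups. It averaged 94 ± 14.5 CPM per kb in mutants and 65.1 ± 14 CPM per kb in N2 at day 5, and 81.1 ± 24 CPM per kb in mutants and 62.6 ± 1.29 CPM per kb in N2 at day 0. After it came flp-1, flp-28, flp-22, flp-24, flp-6 and flp-9, in an order that varied between groups. At the low end of the tested members stood flp-34, with 3.13 ± 0.0963 CPM per kb in mutants and 3.32 ± 0.841 CPM per kb in N2 at day 5, and 3.2 ± 1.04 CPM per kb in mutants and 3.17 ± 0.234 CPM per kb in N2 at day 0. Between single libraries, the highest CPM of a member was 2.32 times its lowest in the median, from 1.73 times for flp-22 to 3.96 times for flp-33. That ratio was under 3 for 28 of 30 members (93.3%), against 46.3% of tested genes and 80% of the pan-neuronal markers. The sets were not matched for level, here or for the shares of intervals given below.

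**Figure D1:**
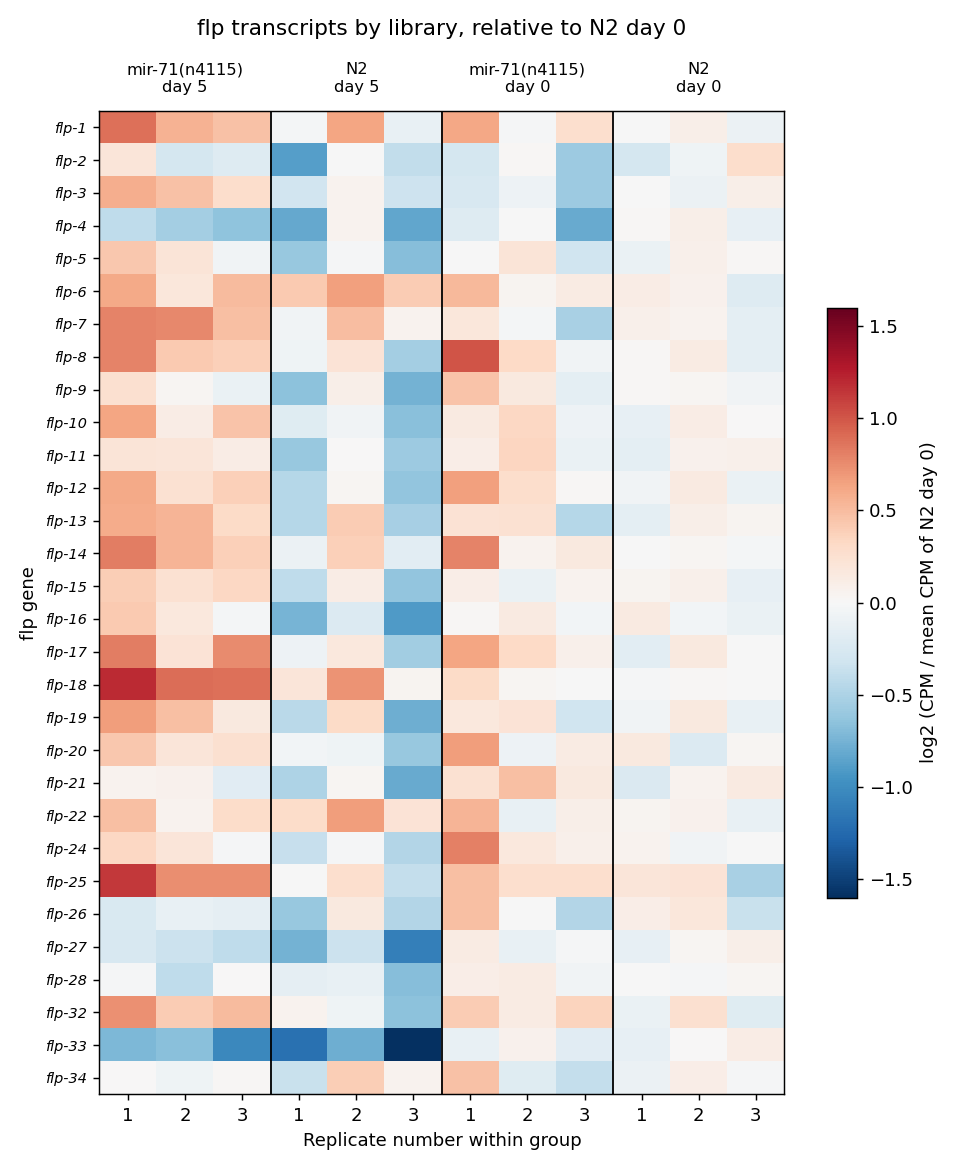
Level of each tested flp gene (rows) in each library (columns), as the log2 of its CPM over the mean CPM of N2 at day 0 (colour scale, red higher and blue lower). Replicate 2 of N2 at day 5 is redder than its neighbours for most genes, flp-18 is red in the mutants at day 5, and flp-33 is blue in both genotypes at day 5.

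By position, 13 of the 31 genes (41.9%) lie on chromosome X, where 13.9% of the tested genes lie. A cluster on the minus strand holds flp-28, flp-3 and flp-2 inside 7932 bases at chrX:10087314-10095245 (WBcel235, Ensembl annotation), within the span of W07E11.1 on the other strand and with no exon shared with it. Within the cluster flp-3 rose with age in mutants (0.74 ± 0.2 log2), where flp-2 had 0.16 ± 0.28 and flp-28 had -0.19 ± 0.17. flp-2 and flp-28 passed the test in none of the 6 contrasts, and neither did W07E11.1. The neighbours were not tested against each other.

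With age, few flp genes passed the test in either genotype, and fewer by share than among all tested genes. In mir-71 mutants, flp-3, flp-7 and flp-18 rose and flp-33 fell among 30 tested members (13.3%), against 52.3% of all tested genes called, with 24.9% higher and 27.4% lower. The median log2 change with age in mutants was 0.16 over the members and 0.01 over all tested genes. For 23 of 30 members (76.7%) the 95% interval of the change lay within 2-fold in either direction, against 36% of tested genes.

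In N2, flp-6 rose and flp-16, flp-27 and flp-33 fell with age (13.3% of 30 members), against 52.1% of all tested genes called, with 23.8% higher and 28.2% lower. The median log2 change was -0.24 over the members and -0.09 over all tested genes, and 26 of 30 intervals (86.7%) lay within 2-fold, against 34.6% of tested genes. The counts in N2 depended on single libraries. Without replicate 2 of N2 at day 5, 0 members rose and 7 fell (flp-4, flp-5, flp-9, flp-11, flp-16, flp-27 and flp-33), which is 23.3% against 48.5% of all genes tested, and the median was -0.42. No member rose and 1 fell without replicate 1 of N2 at day 5 or replicate 2 of N2 at day 0, 1 rose and 1 fell without replicate 3 of N2 at day 5, and 0 rose and 2 fell without replicate 3 of N2 at day 0. Among the pan-neuronal markers 4 fell and 1 rose with age in N2 (33.3% called), and 7 fell and 1 rose without replicate 2 of N2 at day 5 (53.3% called).

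**Figure D2:**
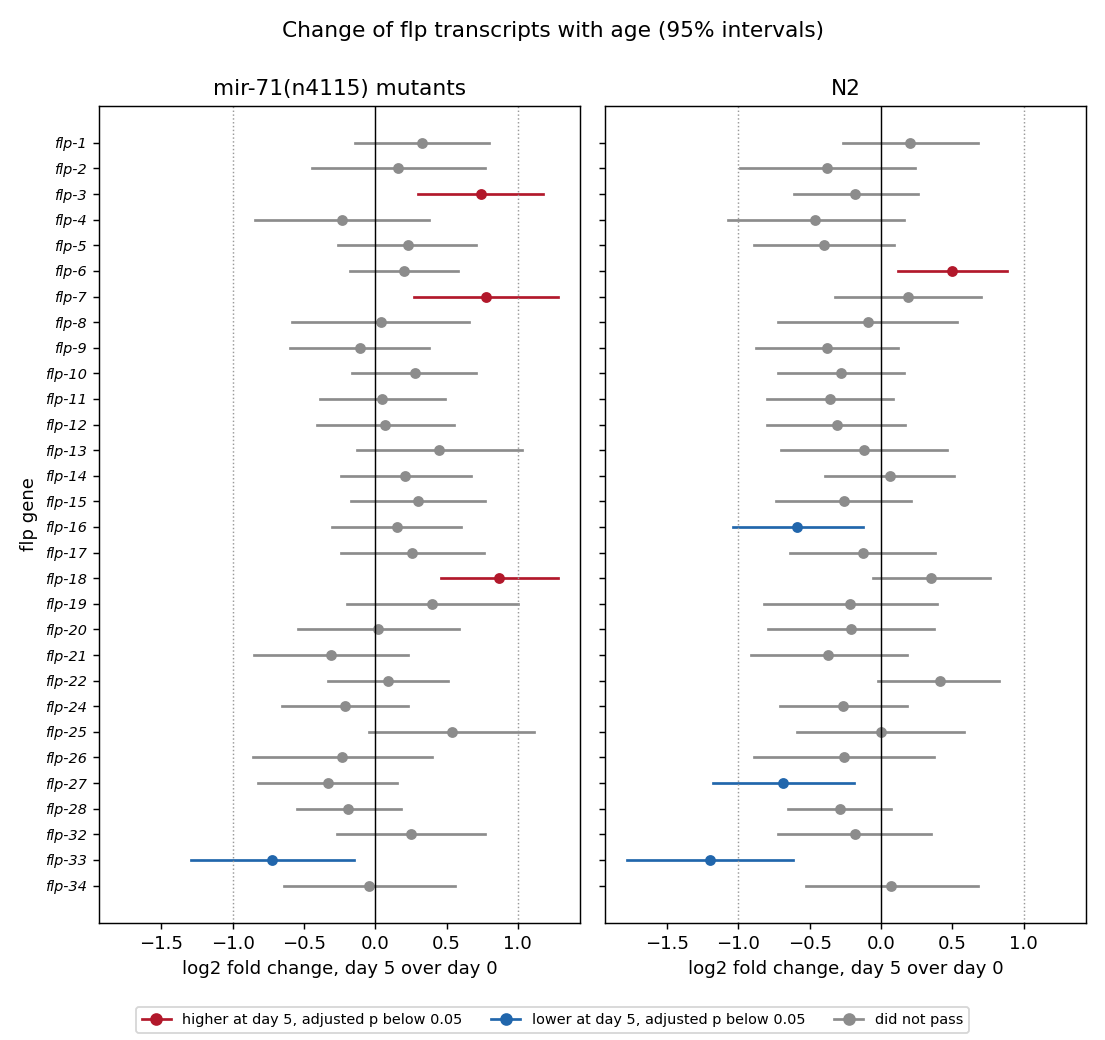
Log2 fold change of each tested flp gene with age, day 5 over day 0, in mir-71(n4115) mutants (left) and N2 (right), with 95% intervals and calls in colour. Most points lie between the dotted lines at a 2-fold change, with flp-18 highest in mutants at 0.87 and flp-33 lowest in N2 at -1.2.

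Between genotypes at day 0, no flp gene passed the edgeR test, against 0.131% of all tested genes called, and 0 were called by DESeq2 or by limma on the deposited log2 values. At an unadjusted p below 0.05 there were 0 of 30, against 4.5% of all tested genes. The intervals were narrow: 29 of 30 (96.7%) lay within 2-fold, against 62.9% of tested genes, and flp-8 was the exception with 0.5 ± 0.29. The median log2 difference was 0.12 over the members and 0 over all tested genes.

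At day 5 flp-10, flp-16 and flp-18 were higher in mutants than in N2 and none was lower (10% of members), against 7.63% of all tested genes called higher and 3.1% called lower, so the share called by edgeR was near the background. DESeq2 called 8 and limma 5, and the shares of all genes called by these tools are not given here, so their counts have no background. An unadjusted p below 0.05 was found for 16 of 30, against 28.4% of all tested genes. The median log2 difference was 0.52 over the members and 0.05 over all tested genes, and 26 of 30 members had a positive difference, against 53.1% of tested genes. Markers of other tissues also differed between mutants and N2 at day 5, not all in 1 direction. Pan-neuronal markers had a median difference of 0.44, with 4 of 15 called higher and 0 lower. Body wall muscle markers had a median of 0.82, with 4 of 8 called higher and sums of 3240 to 3669 CPM in mutants, against 1817 to 2173 CPM in N2. Intestinal markers had a median of 0.29, with 2 of 7 called higher and 1 lower, and sums of 2667 to 4259 CPM in mutants, against 1983 to 2106 CPM in N2. Epidermal markers had a median of 0.48, with 2 of 7 called higher, and sperm markers 0.86, with 0 of 7 called. Oocyte markers went the other way, with 7 of 7 differences negative, a median of -0.24 and 0 called. Their sums were 4851 to 5976 CPM in mutants, against 5523 to 7704 CPM in N2. Without replicate 2 of N2 at day 5, 0 intestinal markers were called higher and 1 lower, and epidermal markers had 1 called higher and 1 lower. In that fit 1 oocyte marker was called lower and 7 of 15 pan-neuronal markers higher. Calls stayed at 4 higher for body wall muscle and 0 for sperm. The part of these tissue shifts in the flp differences was not tested. The CPM of the groups did not overlap for 14 flp members (46.7%), against 38.4% of tested genes. Without replicate 2 of N2 at day 5, 13 members were called higher in mutants (43.3%), against 7.99% of genes tested, all 30 differences were positive and their median was 0.73. The 10 added members were flp-3, flp-5, flp-9, flp-11, flp-12, flp-13, flp-15, flp-17, flp-19 and flp-25. Leaving out some other libraries had the opposite effect, since no member was called without replicate 1 or 3 of N2 at day 5, replicate 1 of the mutants at day 5 or replicate 3 of the mutants at day 0. A single member was called without replicate 1 or 2 of N2 at day 0 or replicate 3 of the mutants at day 5. Without replicate 3 of N2 at day 0 or replicate 2 of the mutants at day 5, 2 were called. The count was 4 without replicate 1 of the mutants at day 0 and 5 without replicate 2 of the mutants at day 0.

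**Figure D3:**
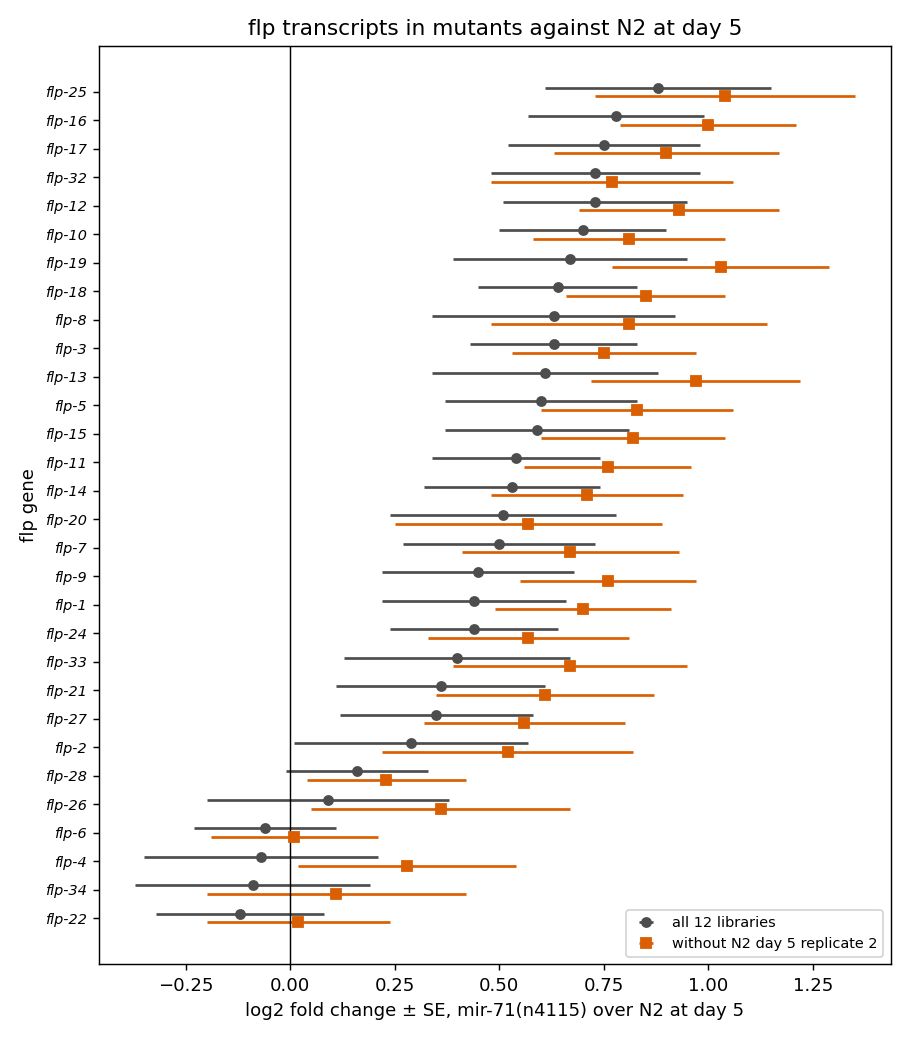
Log2 fold change ± SE of each tested flp gene in mir-71(n4115) mutants over N2 at day 5, from all 12 libraries (dark circles) and without replicate 2 of N2 at day 5 (orange squares). Without that library every point moves to the right, to a median of 0.73 against 0.52 with all libraries.

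The test of unequal change with age, the change in mutants less that in N2, passed for 0 of 30 members in edgeR, against 0.555% of all tested genes called. At an unadjusted p below 0.05 there were 2 of 30, against 14.3% of all tested genes. The difference was called for 0 members by limma and for 1 by DESeq2, flp-3. So an age change called in one genotype and not in the other was not shown by edgeR to differ between them for any flp gene. Averaged over both ages, 0 members differed between mutants and N2 in edgeR or limma, against 5.21% of all tested genes called by edgeR, and DESeq2 called 3. The shares of all genes that DESeq2 called in these contrasts are not given here. At an unadjusted p below 0.05 there were 12 of 30 in the average, against 23.4% of all tested genes. Without replicate 2 of N2 at day 5, edgeR called flp-12, flp-16 and flp-18 higher in mutants over both ages (10%), against 4.75% of genes tested. The family's summed counts were 488, 397 and 348 per M counts of the library's total in mutants at day 5, and 247, 380 and 227 in N2 at day 5. They were 511, 364 and 350 in mutants at day 0 and 352, 342 and 308 in N2 at day 0, and the genotypes overlapped at both ages. After TMM scaling the sums were 471, 387 and 391 per M in mutants, against 285, 386 and 254 in N2 at day 5. These no longer overlapped, but the gap was narrow, at 387 against 386 per M, the latter in replicate 2 of N2. At day 0 they were 435, 355 and 321 in mutants, against 324, 340 and 318 in N2, and these overlapped.

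Among the ligands of the receptors NPR-1, NPR-4 and NPR-5, flp-18 had the clearest pattern. Its peptides are known for acting on foraging and fat storage. It was at 30.4, 24.7 and 24.4 CPM in mutants at day 5, against 16.5, 13.6 and 13.3 CPM in mutants at day 0. Every mutant library of day 5 lay above every mutant library of day 0, with a rise of 0.87 ± 0.19 log2 (1.83-fold, adjusted p = 0.00205, edgeR), called in all 23 alternative settings. N2 had 15.2, 21.8 and 13.7 CPM at day 5, against 13.1, 13.5 and 13.3 CPM at day 0. These groups did not overlap either, but the change of 0.35 ± 0.19 did not pass (edgeR adjusted p = 0.143), and 0.11 ± 0.18 was left without replicate 2 of N2 at day 5. Mutants exceeded N2 at day 5 in every library, by 0.64 ± 0.19 log2 (edgeR adjusted p = 0.0484). This flp-18 call was kept in 3 of the 12 fits that left out 1 library: values were 0.51 to 0.7 without replicate 1 or 3 of N2 at day 5 or any 1 mutant library of day 5, 0.62 without replicate 3 of the mutants at day 0 and 0.64 without any 1 library of N2 at day 0. The difference between the changes with age of flp-18 was 0.52 ± 0.27 (edgeR adjusted p = 0.402).

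The other NPR-1 ligand of the family, flp-21, is known from work on social feeding. It had 3.62, 3.64 and 3.06 CPM in mutants at day 5, against 4.11, 4.84 and 3.85 CPM in mutants at day 0. In N2 it had 2.46, 3.53 and 1.99 CPM at day 5, against 2.95, 3.62 and 3.83 CPM at day 0. Its log2 values with age were -0.31 ± 0.25 in mutants and -0.37 ± 0.25 in N2, neither past the test (edgeR adjusted p = 0.313 and 0.243), and -0.65 in N2 without replicate 2 of N2 at day 5 (edgeR adjusted p = 0.0566).

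In the feeding and fat group, flp-7 encodes peptides that act on the receptor NPR-22 in the gut and promote fat loss. It had 9.43, 9.3 and 7.63 CPM in mutants at day 5, against 6.17, 5.35 and 3.8 CPM in mutants at day 0. The groups did not overlap and flp-7 rose by 0.78 ± 0.23 log2 (1.71-fold, edgeR adjusted p = 0.014). Replicate 3 of the mutants at day 0 was the lowest, and without it the value for flp-7 was 0.54 (edgeR adjusted p = 0.103). In N2 it had 5.26, 7.65 and 5.66 CPM at day 5, against 5.79, 5.65 and 4.91 CPM at day 0, which overlapped (0.19 ± 0.23, edgeR adjusted p = 0.525, and -0.01 without replicate 2 of N2 at day 5). The 2 other genes of the group passed no contrast. flp-15, whose peptides bind NPR-3, differed most between mutants (7.77, 7.03 and 7.41 CPM) and N2 (4.46, 6.4 and 3.82 CPM) at day 5. Those groups did not overlap, at 0.59 ± 0.22 log2 (edgeR adjusted p = 0.103). flp-34, a ligand of NPR-11 in olfactory learning, had log2 values from -0.11 to 0.07 in all 6 contrasts.

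**Figure D4:**
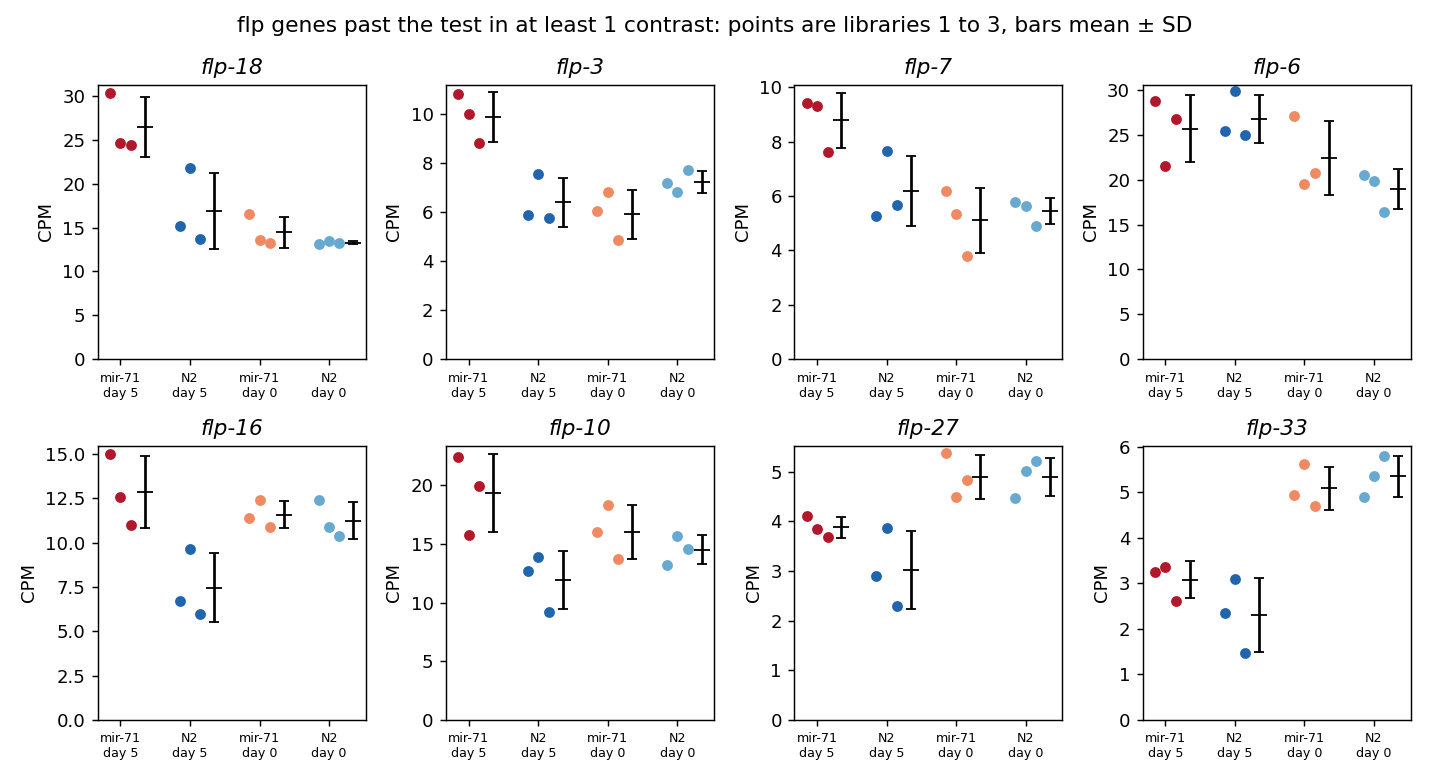
CPM of the 8 flp genes that passed the test in at least 1 contrast, by group: points are libraries 1 to 3 and bars are the mean ± SD of 3 libraries, on a linear axis that starts at 0. For flp-18 the 3 mutant libraries of day 5 lie between 24.4 and 30.4 CPM, above all others, and for flp-33 the 6 libraries of day 5 lie between 1.47 and 3.37 CPM, below all of day 0.

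The egg-laying and gas-sensing group holds flp-10 and flp-17, whose peptides activate the receptor EGL-6 and inhibit egg laying, and flp-19, expressed in the carbon dioxide-sensing BAG neurons. flp-10 had 22.4, 15.8 and 19.9 CPM in mutants at day 5, against 12.7, 13.9 and 9.16 CPM in N2 at day 5. Every mutant library exceeded every N2 library, by 0.7 ± 0.2 log2 (1.62-fold, edgeR adjusted p = 0.0454). At day 0 flp-10 stood at 16, 18.3 and 13.7 CPM in mutants, against 13.2, 15.7 and 14.6 CPM in N2, which overlapped (0.14 ± 0.2, edgeR adjusted p = 0.972). The day 5 call of flp-10 was kept in 4 of the 12 fits that left out 1 library. It was lost, at 0.54 to 0.74, without replicate 1 or 3 of N2 at day 5, replicate 1 or 3 of the mutants at day 5, replicate 3 of the mutants at day 0 or any 1 library of N2 at day 0.

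For flp-17 the day 5 values were 20, 13.2 and 19.2 CPM in mutants, against 10.7, 12.7 and 7.7 CPM in N2. They did not overlap, and the difference of 0.75 ± 0.23 missed the threshold (edgeR adjusted p = 0.0583). It passed without replicate 2 of N2 at day 5 (0.9, edgeR adjusted p = 0.0488) and without replicate 2 of the mutants at day 5 (0.92, edgeR adjusted p = 0.045). flp-19 overlapped between mutants (11.4, 10 and 7.99 CPM) and N2 (5.31, 8.9 and 4.19 CPM) at day 5, at 0.67 ± 0.28 (edgeR adjusted p = 0.139). Without replicate 2 of N2 at day 5, flp-19 was called at 1.03 (edgeR adjusted p = 0.0332). None of the 3 passed with age in either genotype. The receptor gene egl-6 had wide scatter, with 4.17, 3.47 and 2.64 CPM in mutants and 2.76, 3.75 and 2.62 CPM in N2 at day 5, and 8.02, 2.58 and 5.37 CPM in mutants and 6.83, 2.45 and 5 CPM in N2 at day 0. Its log2 values with age were -0.63 ± 0.42 in mutants and -0.63 ± 0.43 in N2, not past the test. Replicate 2 was the lowest egl-6 library in both genotypes at day 0.

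The sleep group holds flp-11, the main sleep-promoting peptide gene of the RIS neuron, and flp-13 and flp-24, which act in stress-induced sleep from the ALA neuron. None of the 3 passed any contrast with all libraries. flp-11 was close to level within the mutants, at 13.4, 13.2 and 12.6 CPM at day 5, against 12.4, 14.7 and 10.7 CPM at day 0 (0.05 ± 0.2). In N2 it had 7.6, 11.6 and 7.7 CPM at day 5, against 10.4, 12.1 and 12.2 CPM at day 0. Replicate 2 overlapped the day 0 range, and the value was -0.36 ± 0.2 with it (edgeR adjusted p = 0.157) and -0.61 without it (edgeR adjusted p = 0.0234). flp-13 had 15, 14.5 and 12.2 CPM in mutants, against 7.22, 13.1 and 6.86 CPM in N2 at day 5, where replicate 2 of N2 again reached into the mutants' range (0.61 ± 0.27, edgeR adjusted p = 0.158). Without it flp-13 was called at 0.97 (edgeR adjusted p = 0.0336). flp-24 differed between mutants and N2 by 0.44 ± 0.2 at day 5 and by 0.39 ± 0.2 at day 0, neither past the test, with no overlap of libraries at either age.

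Of the genes tied to locomotion, flp-1, whose loss makes animals overactive, had 47.1, 37.4 and 35.4 CPM in mutants, against 25, 39.5 and 23.6 CPM in N2 at day 5. The N2 library above the lower mutant libraries was replicate 2, and the difference was 0.44 ± 0.22 (edgeR adjusted p = 0.204), or 0.7 ± 0.21 without that library (edgeR adjusted p = 0.0537). flp-14 did not overlap between genotypes at either age, with 52.4, 43.4 and 38.8 CPM in mutants and 27.9, 38.7 and 26.5 CPM in N2 at day 5, and 51.8, 31 and 33.2 CPM in mutants and 29.8, 30.5 and 29.2 CPM in N2 at day 0. The gaps at the edges were narrow, and the differences of 0.53 ± 0.21 at day 5 and 0.37 ± 0.21 at day 0 did not pass (edgeR adjusted p = 0.121 and 0.906). flp-20, known from touch receptor neurons and arousal, was among the least abundant members, at 1.62 to 3.89 CPM over the 12 libraries, and passed no contrast. flp-2, an arousal gene whose peptides act on FRPR-18, ranged from 2.21 to 4.97 CPM and passed none either.

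Among the remaining members, flp-33 had the largest change of the family with age. It had 3.26, 3.37 and 2.62 CPM in mutants at day 5, against 4.94, 5.62 and 4.7 CPM in mutants at day 0. In N2 it had 2.34, 3.1 and 1.47 CPM at day 5, against 4.89, 5.35 and 5.81 CPM at day 0. All 6 libraries of day 5 lay below all 6 of day 0. flp-33 fell by 0.72 ± 0.26 log2 in mutants (edgeR adjusted p = 0.0345) and by 1.2 ± 0.27 in N2 (edgeR adjusted p = 0.00245). The N2 call for flp-33 was kept in all 23 alternative settings, at -1.5 without replicate 2 of N2 at day 5. The mutant call was lost without any 1 mutant library of day 5 (-0.79 to -0.62) and without replicate 2 of the mutants at day 0 (-0.65). The difference between the 2 changes of flp-33 was 0.47 ± 0.37 (edgeR adjusted p = 0.6). It shares 8 exonic bases with ntr-1 on the other strand, which did not pass with age (0.17 ± 0.54 in mutants and -0.16 ± 0.55 in N2), and the strand of the counting is not stated.

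flp-3 is known from the response of males to a pheromone. It had 10.8, 9.98 and 8.8 CPM in mutants at day 5, against 6.04, 6.82 and 4.83 CPM in mutants at day 0. The groups did not overlap, and flp-3 rose by 0.74 ± 0.2 log2 (1.67-fold, edgeR adjusted p = 0.0082). Without replicate 3 of the mutants at day 0, the lowest, the value for flp-3 was 0.55 (edgeR adjusted p = 0.0652). In N2 it had 5.86, 7.52 and 5.76 CPM at day 5, against 7.19, 6.79 and 7.69 CPM at day 0, which overlapped (-0.18 ± 0.2, edgeR adjusted p = 0.491, and -0.33 without replicate 2 of N2 at day 5). Its difference between the changes with age, 0.92 ± 0.29, had the smallest adjusted p of the family in that contrast (edgeR adjusted p = 0.184), and DESeq2 called flp-3 there at 0.83 (adjusted p = 0.0453).

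flp-16 had 15, 12.6 and 11 CPM in mutants at day 5, against 6.71, 9.66 and 5.97 CPM in N2 at day 5. The groups did not overlap, and flp-16 was higher in mutants by 0.78 ± 0.21 log2 (1.72-fold, edgeR adjusted p = 0.035). At day 0 it had 11.4, 12.4 and 10.9 CPM in mutants and 12.4, 10.9 and 10.4 CPM in N2. With age, flp-16 fell in N2 by 0.59 ± 0.21 (edgeR adjusted p = 0.0335), and the mutants' value was 0.15 ± 0.21 (edgeR adjusted p = 0.564). The difference of these changes, 0.74 ± 0.3, did not pass (edgeR adjusted p = 0.287). The N2 call for flp-16 was lost without replicate 1 or 3 of N2 at day 5 or replicate 1 or 2 of N2 at day 0 (-0.61 to -0.45). The genotype call was lost without replicate 1 or 3 of N2 at day 5, replicate 1 or 2 of the mutants at day 5 or replicate 3 of the mutants at day 0 (0.65 to 0.8). Its 14 exonic bases shared with romo-1 on the other strand are a further limit, and romo-1 fell by 0.59 ± 0.19 with age in mutants (edgeR adjusted p = 0.021) and had -0.13 ± 0.19 in N2.

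flp-27 fell with age in N2, to 2.89, 3.87 and 2.3 CPM at day 5, against 4.47, 5.02 and 5.21 CPM at day 0, with no overlap (-0.69 ± 0.23, edgeR adjusted p = 0.0228, and -0.93 without replicate 2 of N2 at day 5). That call was lost without replicate 1 or 3 of N2 at day 5 or replicate 2 or 3 of N2 at day 0 (-0.67 to -0.53). In mutants flp-27 had 4.11, 3.85 and 3.69 CPM at day 5, against 5.37, 4.5 and 4.83 CPM at day 0, also without overlap, and -0.33 ± 0.22 did not pass (edgeR adjusted p = 0.231). flp-6, reported to act from thermosensory neurons on lifespan at warm temperature, was the member that rose in N2. It had 25.4, 29.9 and 25 CPM in N2 at day 5, against 20.5, 19.9 and 16.4 CPM in N2 at day 0 (0.5 ± 0.18, 1.41-fold, edgeR adjusted p = 0.0301). The flp-6 call was lost without replicate 1 or 2 of N2 at day 5 or replicate 2 or 3 of N2 at day 0 (0.4 to 0.54), and in mutants the value was 0.2 ± 0.17 with overlapping libraries.

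The other 11 members, flp-4, flp-5, flp-8, flp-9, flp-12, flp-22, flp-25, flp-26, flp-28 and flp-32 among the tested and flp-23 untested, passed no contrast with all libraries. At day 5, flp-25 had the largest difference of the family between the genotypes, with 5.68, 4.32 and 4.33 CPM in mutants, against 2.59, 3.12 and 1.99 CPM in N2. The libraries did not overlap, and 0.88 ± 0.27 missed the threshold (edgeR adjusted p = 0.0541). flp-12 was next to it in adjusted p, with 17.3, 13.5 and 14.8 CPM in mutants, against 8.32, 11.7 and 7.38 CPM in N2, at 0.73 ± 0.22 (edgeR adjusted p = 0.0549). Both were called by DESeq2 (0.79 for flp-25 and 0.65 for flp-12). flp-22 showed the opposite order at day 5, with 25.9, 19.4 and 22.9 CPM in mutants, against 22.9, 29.5 and 21.6 CPM in N2, and the groups overlapped (-0.12 ± 0.2, edgeR adjusted p = 0.741). The value of flp-22 was 0.02 without replicate 2 of N2 at day 5.

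The genes that make and release the peptides were compared with their precursors. Of 11 precursor-processing genes, 4 rose and 1 fell with age in mutants (median 0.32), and 2 rose and 3 fell in N2 (median -0.06). That was 45.5% called in each genotype, against 52.3% of all tested genes in mutants and 52.1% in N2. In N2, 2 rose and 5 fell without replicate 2 of N2 at day 5 (median -0.26), which is 63.6% against 48.5% of all genes tested. egl-3, the main proprotein convertase of neuropeptide precursors, had 156, 130 and 141 CPM in mutants at day 5, against 71.2, 110 and 78.7 CPM in mutants at day 0. It rose by 0.71 ± 0.18 log2 (1.64-fold, edgeR adjusted p = 0.00543), with no overlap. egl-21, the carboxypeptidase that acts next, had 107, 102 and 106 CPM in mutants at day 5, against 52.1, 85.1 and 54 CPM in mutants at day 0, and rose by 0.72 ± 0.18 (edgeR adjusted p = 0.00481). Both calls were kept in all 23 alternative settings. In N2 the values with age were -0.06 ± 0.18 for egl-3 and -0.01 ± 0.18 for egl-21, and neither difference between the genotypes' changes was called. The amidating enzyme gene pamn-1 rose in mutants by 0.8 ± 0.13 (edgeR adjusted p = 0.000329) and had 0.34 ± 0.13 in N2 (edgeR adjusted p = 0.051). sbt-1, the chaperone of EGL-3, had 0.31 ± 0.17 in mutants and -0.29 ± 0.17 in N2, neither past the test, but fell in N2 without replicate 2 of N2 at day 5 (-0.52, edgeR adjusted p = 0.0177). The convertase genes bli-4 and kpc-1 are also known outside neurons, in cuticle and dendrite formation: bli-4 rose in both genotypes (0.98 ± 0.13 in mutants and 0.86 ± 0.13 in N2), and kpc-1 rose in N2 (1.48 ± 0.34) and had 0.85 ± 0.34 in mutants (edgeR adjusted p = 0.0501). cpd-2, a carboxypeptidase D gene, fell in both (-0.61 ± 0.21 in mutants and -0.87 ± 0.22 in N2), and the mutant call was lost without replicate 2 or 3 of the mutants at day 5 or at day 0 (-0.65 to -0.5).

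Of 13 dense core vesicle genes, 6 rose and none fell with age in mutants (median 0.47), and 3 rose and 2 fell in N2 (median -0.03). The shares called were 46.2% in mutants and 38.5% in N2, against 52.3% and 52.1% of all tested genes. ric-19, a factor in dense core vesicle maturation, had 1.52 ± 0.23 in mutants and 0.92 ± 0.23 in N2, and the kinase gene pkc-1, which promotes neuropeptide release, had 0.78 ± 0.15 in mutants and 0.86 ± 0.15 in N2, and each rose in both genotypes. tbc-8, another vesicle maturation gene, and egl-8, a phospholipase C, rose in mutants (0.82 ± 0.19 and 0.73 ± 0.18). In N2 tbc-8 had 0.43 ± 0.19 (edgeR adjusted p = 0.0791) and egl-8 had -0.01 ± 0.18. Neither difference between the genotypes' changes passed (edgeR adjusted p = 0.561 for tbc-8 and 0.213 for egl-8). unc-31, which primes dense core vesicles for release, had 2.93, 4.8 and 4.29 CPM in N2 at day 5, against 5.56, 6.68 and 6.67 CPM in N2 at day 0. The groups did not overlap, and it fell by 0.65 ± 0.26 (edgeR adjusted p = 0.0489). Among the 12 fits that left out 1 library, that call was kept in 3, those without replicate 2 of N2 at day 5 or replicate 1 or 2 of the mutants at day 0, and the values of unc-31 lay between -0.83 and -0.45 over all alternatives. In mutants unc-31 had -0.13 ± 0.25.

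Among 14 receptor genes for RFamide peptides, 1 rose and 1 fell with age in mutants (median -0.05), and 1 rose and 4 fell in N2 (median -0.53). The shares called were 14.3% in mutants and 35.7% in N2, against 52.3% and 52.1% of all tested genes. Leaving out replicate 2 of N2 at day 5 gave 1 that rose and 3 that fell in N2 (median -0.82). frpr-3, a receptor for the peptides of flp-20, rose in both genotypes, at low levels. It had 1.1, 0.946 and 0.758 CPM in mutants at day 5, against 0.449, 0.539 and 0.358 CPM in mutants at day 0. The N2 values were 0.722, 1.19 and 1.26 CPM in N2 at day 5, against 0.466, 0.409 and 0.479 CPM in N2 at day 0. Its changes were 1.03 ± 0.31 in mutants (edgeR adjusted p = 0.0133) and 1.23 ± 0.31 in N2 (edgeR adjusted p = 0.00557), and the mutant call was lost without replicate 1 of the mutants at day 5 (0.9) or replicate 3 of the mutants at day 0 (0.85). npr-10 fell in both (-1.08 ± 0.29 in mutants and -0.79 ± 0.29 in N2). The FLP-18 receptor gene npr-4 fell in N2 (-1.24 ± 0.38, edgeR adjusted p = 0.0158) and had -0.22 ± 0.36 in mutants, and the FLP-13 receptor gene dmsr-1 fell in N2 (-0.86 ± 0.27, edgeR adjusted p = 0.0163) and had -0.5 ± 0.26 in mutants. The N2 groups of npr-4 overlapped, with 1.61, 1.19 and 0.995 CPM at day 5, against 4.16, 1.58 and 3.26 CPM at day 0. dmsr-7 fell in N2 (-1.09 ± 0.35, edgeR adjusted p = 0.019) and had -0.01 ± 0.33 in mutants. The N2 calls were lost without replicate 2 or 3 of N2 at day 0 or replicate 3 of N2 at day 5 for npr-10 (-0.75 to -0.58), and without replicate 1 of N2 at day 0 or replicate 2 or 3 of N2 at day 5 for npr-4 (-1.2 to -0.92). They were lost without replicate 2 of N2 at day 0 or replicate 3 of N2 at day 5 for dmsr-1 (-0.73 to -0.64), and without replicate 1 or 3 of N2 at day 5 or replicate 2 or 3 of N2 at day 0 for dmsr-7 (-1.06 to -0.8).

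Of the 23 neprilysin genes, which encode metallopeptidases that can degrade neuropeptides and which are also expressed outside neurons, 2 rose and 13 fell with age in mutants (median -1.12), and 1 rose and 17 fell in N2 (median -1.83). That was 65.2% called in mutants and 78.3% in N2, against 52.3% and 52.1% of all tested genes. Leaving out replicate 2 of N2 at day 5 gave 2 that rose and 18 that fell in N2. The summed sperm markers fell with them, and at day 0, where those sums were 390, 1035 and 571 CPM in mutants and 463, 1133 and 790 CPM in N2, nep-8 had 4.08, 17.8 and 8.5 CPM in mutants and 6.93, 18 and 11.9 CPM in N2. In both genotypes replicate 2 was the highest and replicate 1 the lowest for the sperm sum and for nep-8, a gene singled out after its values were seen. The part of sperm RNA in the neprilysin changes was not tested. nep-1 rose in both genotypes (1.49 ± 0.15 in mutants and 1.37 ± 0.15 in N2) and nep-4 fell in both (-3.62 ± 0.32 in mutants and -3.83 ± 0.33 in N2). The other peptide families had a wider range of log2 values than the flp genes. Among 58 tested nlp genes, 16 rose and 6 fell with age in mutants and 6 rose and 5 fell in N2, with log2 values from -5.05 to 6.99 over both genotypes, and among 30 tested ins genes, which encode insulin-like peptides, 8 rose and 3 fell in mutants and 5 rose and 3 fell in N2. In mutants that was 37.9% of nlp and 36.7% of ins genes, against 52.3% of all tested genes. In N2 it was 19% and 26.7%, against 52.1%. Without replicate 2 of N2 at day 5, 5 nlp genes rose and 8 fell in N2 (median -0.38, against -0.11 with all libraries), and 5 of 32 tested ins genes rose and 4 fell (median -0.16, against 0.07). The flp values with age lay between -1.2 and 0.87.

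**Figure D5:**
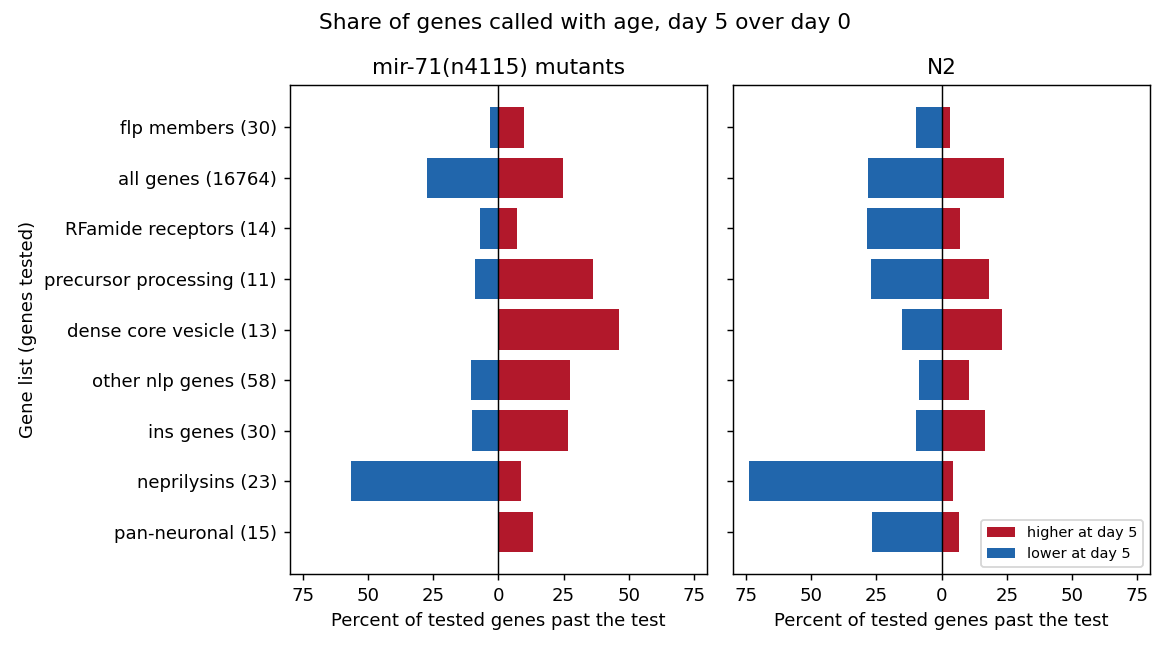
Percent of the tested genes of each list called higher (red, to the right) or lower (blue, to the left) with age, day 5 over day 0, in mir-71(n4115) mutants (left) and N2 (right), with the number tested in brackets. The flp bars add to 13.3% in each genotype, against 52.3% of all genes in mutants and 52.1% in N2, and among the lists plotted, which hold no muscle or sperm markers, the neprilysin bars to the left are the longest.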

How the data were processed

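Poly(A) RNA of whole adults was measured in 12 libraries, 3 for each genotype and age, grouped by the labels. The deposited table holds whole, unscaled read counts per gene, and the authors also deposited a table of log2 values that its name calls rlog, a regularized logarithm of normalized counts. Per the submitters' processing notes, the tools were STAR 2.4.0h and DESeq2 and the build was WBcel235, with no step stated for either tool. Counter, annotation and strand setting were not given in the sources used here. Reads of genes that overlap on opposite strands therefore cannot be told apart. Symbols came from a names table (43623 IDs matched) and positions and exon lengths from the Ensembl 115 annotation of WBcel235. No genome sequence was used here.

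In R 4.3.3, filterByExpr left 16764 genes. edgeR 4.0.16 fitted a mean for each of the 4 groups in 1 model of the 12 libraries (TMM factors 0.868 to 1.17, quasi-likelihood F-test, 8 residual degrees of freedom). P-values were adjusted by Benjamini-Hochberg over all tested genes in each of 6 contrasts: age in mutants and in N2, genotype at day 5, at day 0 and averaged, and the difference between the age changes. The code was tested on simulated data. Intervals are 95% intervals of the fit. At 3 counts, a library gives 0.045 to 0.157 CPM. Libraries of a group differed by more than counting error, at 28.9 to 319 chi-square units per gene.

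The members and the gene lists were chosen with earlier results of these data known. Named were every flp gene, egl-3, egl-21, sbt-1, unc-31 and egl-6, and from each other list up to 4 genes with the smallest p in either age contrast, of which some are printed. Other names were chosen after their values were seen. The nlp list leaves out nlp-24 to nlp-34. Alternatives were RLE, upper-quartile and reduced TMM factors, no filter, a replicate block, DESeq2 1.42.0, limma 3.58.1 on the deposited log2 values, fits of the compared groups alone, and fits without single libraries or same-numbered day 0 libraries. Same-number deviations correlated between the genotypes at day 0 (0.76, 0.66 and 0.28), which pairs those libraries by the data, with no such note in the labels. In the other contrasts at least 1 of 3 correlations was 0.1 or lower.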

Additional observations from a re-analysis of the deposited data

How the results depend on the processing

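No called value of a named gene that was followed through the alternatives changed sign. The calls of pghm-1, unc-13 and romo-1 were not followed. Over the 30 tested flp genes alone and all 6 contrasts, 4000 values kept their side of the threshold, 64 lost a call and 46 gained one. All the counts below are of flp genes called by edgeR unless another tool is named, and where a count moved the cause was not tested, except that leaving out libraries or groups leaves fewer samples and lifting the filter adds tests. For age in mutants, 3 were called higher and 1 lower. Calls were 0 lower with no filter, 0 lower without the day 0 libraries numbered 2, and 1 higher and 0 lower without those numbered 3. For age in N2, 1 was called higher and 3 lower. Calls were 0 higher with upper-quartile factors, 0 higher and 1 lower with no filter or without the day 0 libraries numbered 3, and 1 lower with the compared groups alone. For genotype at day 5, 3 were called higher. Calls were 1 with RLE factors, 0 with no filter or without the day 0 libraries numbered 3, 7 without those numbered 2 or with the compared groups alone, 8 with DESeq2 and 5 with limma. Averaged over ages, DESeq2 called 3, and for the difference between the age changes it called 1, against 0 by edgeR. No share of all genes is given beside the counts of DESeq2 and limma. Genotype at day 0 gave 0 calls in every alternative run.

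Leaving out 1 library at a time gave 1 to 3 higher and 0 to 1 lower for age in mutants, 0 to 1 higher and 1 to 7 lower for age in N2, 0 to 13 higher for genotype at day 5, 0 to 3 for genotype averaged over ages, and 0 for genotype at day 0 and for the difference between the age changes. Upper-quartile factors moved the median log2 change of all genes with age in N2 to -0.22 and that of the flp genes to -0.36, against -0.09 and -0.24 with TMM. At day 5 between genotypes they gave 0.12 and 0.58, against 0.05 and 0.52. The summed flp share of each group moved by less than its SD with scaled totals, while the overlap between genotypes at day 5 was lost by a narrow gap.

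With a replicate block, 5 flp genes were called higher in mutants at day 5, flp-12 and flp-25 being added, and 1, flp-25, when averaged over ages. The paired fit changed no other count of flp calls, and at day 0 it gave 0, also in a fit of the 6 day 0 libraries alone, which was chosen after seeing the data. The lowest count of a tested member in any library was 28, for flp-33 in replicate 3 of N2 at day 5, and flp-23 lay under the depth at which a change could be tested.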

Other observations

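The receptor families that hold many RFamide receptors are not all receptors of flp peptides, and their members moved both ways with age. Of 20 frpr genes, 2 rose and 4 fell in mutants (30%) and 1 rose and 1 fell in N2 (10%), against 52.3% and 52.1% of all tested genes called. frpr-16 had 0.466, 0.722 and 0.489 CPM in mutants at day 5, against 1.57, 1.83 and 1.03 CPM in mutants at day 0, and fell by 1.4 ± 0.39 log2 (edgeR adjusted p = 0.00938). In N2 it had 0.255, 0.703 and 0.471 CPM at day 5, against 0.672, 0.623 and 0.329 CPM at day 0, which overlapped. frpr-14 rose in mutants (1.1 ± 0.26) and frpr-6 fell in mutants (-1.62 ± 0.38), both at levels below 2 CPM. In N2 frpr-14 had 0.68 ± 0.27 (edgeR adjusted p = 0.0512). frpr-6 also fell in N2 (-1.03 ± 0.41, edgeR adjusted p = 0.0484), a call kept in 6 of 23 alternative settings. Neither difference between the genotypes' changes passed (edgeR adjusted p = 0.656 for frpr-14 and 0.674 for frpr-6).

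Of 8 tested dmsr genes, 1 rose and 1 fell with age in mutants (25%) and 1 rose and 3 fell in N2 (50%). Among all tested genes, 52.3% and 52.1% were called. Without replicate 2 of N2 at day 5, 0 dmsr genes rose and 3 fell in N2 (37.5%), against 48.5% of genes tested. dmsr-2 rose in both, to 9.15, 9.3 and 14.7 CPM in mutants at day 5, against 2.52, 2.86 and 3.76 CPM in mutants at day 0 (1.87 ± 0.29, edgeR adjusted p = 0.000212), and to 5.6, 6.07 and 3.3 CPM in N2 at day 5, against 2.64, 2.86 and 3.41 CPM in N2 at day 0 (0.76 ± 0.29, edgeR adjusted p = 0.044). The N2 groups of dmsr-2 overlapped, and that call was lost, at 0.58 to 0.86, without replicate 1 or 2 of N2 at day 5, any 1 library of N2 at day 0, replicate 1 or 2 of the mutants at day 5 or replicate 3 of the mutants at day 0. At day 5 it was higher in mutants than in N2 by 1.14 ± 0.29 (edgeR adjusted p = 0.0268), with no overlap, and that call was lost, at 0.88 to 1.26, without replicate 1 or 3 of the mutants or of N2 at day 5.

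At day 5, 4 of 15 pan-neuronal markers were higher in mutants than in N2 (ric-4, unc-18, rab-3 and snt-1) and none was lower, with a median of 0.44, against 0.52 over the flp genes and 0.05 over all tested genes. That was 26.7% called, against 10.7% of all tested genes. The vesicle protein gene rab-3 differed by 0.99 ± 0.2 (edgeR adjusted p = 0.00941), a call lost without replicate 1 of N2 at day 5 (0.92, edgeR adjusted p = 0.0514). Of the 12 fits that left out 1 library, the ric-4 call (0.82) was kept only in the 3 without replicate 2 of N2 at day 5 or replicate 1 or 2 of the mutants at day 0, and the snt-1 call (0.92) only in those 3 and in the fit without replicate 2 of N2 at day 0. The unc-18 call (0.58) was lost without replicate 1 or 3 of the mutants or of N2 at day 5. RLE factors also ended the call of ric-4, and lifting the filter that of snt-1. Without replicate 2 of N2 at day 5, 7 of the 15 were higher in mutants, with a median of 0.66. The amidating enzyme gene pghm-1 (0.63 ± 0.15, edgeR adjusted p = 0.0211) and the vesicle priming gene unc-13 (1.07 ± 0.22, edgeR adjusted p = 0.0111) were also higher in mutants at day 5. These genes were named after their values were seen, and the pghm-1 and unc-13 calls were not followed through the alternatives.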
